A study of Mus musculus with 8 samples.

Results

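The 7 genes of the neutrophil's matrix-degrading and shedding system described here were measured in spleen neutrophils with and without the chemokine receptor Cxcr2. They were the granule proteases Mmp8, Mmp9 and Mmp25, the membrane proteases Adam8, Adam10 and Adam17, and the inhibitor Timp2. They were chosen by name, as the rows of the gene count files whose Ensembl identifier maps to these symbols, which gives 7 of the 55414 genes listed. All 7 were detected in every library, with 4134 to 221361 counts per gene and library, and all passed the filter on low counts.

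The libraries came from 4 wild-type (WT) and 4 Cxcr2-/- mice, both on the FVB background, 10 weeks old and housed under specific and opportunistic pathogen free (SOPF) conditions. Cxcr2-/- mice lack the receptor in the germline and therefore in every cell, and the line was backcrossed to FVB. Neutrophils were taken from the spleen by positive selection for CD11b and then sorted as CD45+ CD11b+ Ly6G+ F4/80- cells, and total RNA of each mouse gave 1 paired-end library. The sort took Ly6G+ CD11b+ cells as a whole and did not separate maturation stages, although the paper relates the Ly6G level to maturation. Among CD45+ CD11b+ Ly6G+ cells, the paper's flow cytometry found a larger share of immature, Ly6G-low cells in Cxcr2-/- spleen. It also found a smaller share of mature cells there, so the groups compared here differ in stage. P-values weigh the difference between the genotypes against the spread between libraries of the same genotype, which holds differences of handling as well as of mice. In such bulk RNA, fewer cells of a type and less RNA per cell cannot be told apart.

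Neutrophils make their proteases early, during maturation in the marrow, and store them in granules that form in a fixed order: azurophil granules at the promyelocyte stage, specific granules next, and gelatinase granules last. Gelatinase granules, named for the gelatinase Mmp9, are released readily when the cell leaves the blood, and their enzymes cut collagen and basement membrane. Matrix metalloproteinases (MMPs) are made as inactive proenzymes and are held in check by tissue inhibitors of metalloproteinases (TIMPs). The ADAM proteases sit in the membrane and cut the outer part off other membrane proteins, such as receptors of TNF and Notch.

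MMPs and ADAMs share a zinc-binding active site, and the coding sequence of that site is shown for the 6 protease genes because it is what joins the 2 families here. The search used the codons of the metzincin zinc-binding motif, in frame, in GENCODE M21 transcripts (GRCm38), and the capitals mark the codons that the motif fixes.
Mmp8: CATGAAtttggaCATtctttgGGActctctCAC
Mmp9: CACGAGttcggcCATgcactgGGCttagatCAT
Mmp25: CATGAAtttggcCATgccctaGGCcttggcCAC
Adam8: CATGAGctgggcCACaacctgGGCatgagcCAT
Adam10: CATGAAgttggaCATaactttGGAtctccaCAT
Adam17: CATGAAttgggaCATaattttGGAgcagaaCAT
Each stretch is 33 bases long. The site of Mmp8 lies at chr9:7563086-7563118 on the + strand, in exon 5 of 10, that of Mmp9 at chr2:164951133-164951165 (+, exon 8 of 13) and that of Mmp25 at chr17:23632843-23632875 (-, exon 5 of 10). The site of Adam8 lies at chr7:139987893-139987925 (-, exon 11 of 24) and that of Adam17 at chr12:21336732-21336764 (-, exon 12 of 20). In Adam10 the stretch is split by an intron, from exon 9 to exon 10 of 16, between chr9:70754296 and chr9:70761585 on the + strand. The motif was found in 68 of 21951 protein-coding genes (0.31%), and in all 19 other MMP genes searched. It was found in 6 of 10 other ADAM genes and in none of the 5 other inhibitor genes. Timp2, an inhibitor and not a protease, has no such stretch in its coding sequence. Adam10 and Adam17 were the most similar pair, with 26 of 33 bases identical, while Mmp8 and Adam8, and Mmp9 and Adam10, shared 17 of 33. Part of each of these counts was fixed in advance, because the search requires the same bases within the codons in capitals.

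The 250 bases upstream of the start are shown for a pair of genes whose RNA rose (Mmp8, Mmp25) and a pair whose RNA fell (Adam8, Adam17) in Cxcr2-/- neutrophils, so that the members that moved in opposite directions can be read side by side. They come from RefSeq (GRCm38.p6), where 6 of the 7 genes matched, and run 5′ to 3′ on the gene's strand. Capitals mark matches, on either strand, to the letters of AP-1 (TGANTCA), those of C/EBP (TTGCNNAA), the ETS core (GAGGAA), the GC box (GGGCGG), the CCAAT box (CCAAT) or the TATA box (TATAAA).
Mmp8, chr9:7558179-7558428 (+): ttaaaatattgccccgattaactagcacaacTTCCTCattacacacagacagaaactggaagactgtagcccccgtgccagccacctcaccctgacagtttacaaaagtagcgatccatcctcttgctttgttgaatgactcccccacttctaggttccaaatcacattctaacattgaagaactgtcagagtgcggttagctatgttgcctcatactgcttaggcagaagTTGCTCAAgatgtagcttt
Mmp25, chr17:23645270-23645519 (-): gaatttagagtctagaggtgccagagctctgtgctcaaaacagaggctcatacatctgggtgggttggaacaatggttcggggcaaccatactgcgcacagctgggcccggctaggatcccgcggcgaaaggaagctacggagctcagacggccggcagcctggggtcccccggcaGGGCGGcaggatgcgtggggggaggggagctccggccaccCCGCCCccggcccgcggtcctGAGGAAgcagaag
Adam8, chr7:139992563-139992812 (-): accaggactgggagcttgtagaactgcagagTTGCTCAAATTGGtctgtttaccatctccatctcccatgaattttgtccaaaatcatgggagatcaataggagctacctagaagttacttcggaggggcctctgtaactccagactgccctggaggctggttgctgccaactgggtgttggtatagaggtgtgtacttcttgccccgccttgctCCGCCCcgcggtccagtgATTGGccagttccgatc
Adam17, chr12:21373633-21373882 (-): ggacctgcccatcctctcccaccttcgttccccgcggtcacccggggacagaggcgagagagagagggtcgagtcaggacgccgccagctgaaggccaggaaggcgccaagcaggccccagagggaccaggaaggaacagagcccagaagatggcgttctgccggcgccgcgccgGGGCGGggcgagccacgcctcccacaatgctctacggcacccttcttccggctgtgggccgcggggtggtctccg
Of all 32851 promoter windows of this length, 9.56% held the C/EBP letters, 23.25% the ETS core, 32.74% a GC box, 33.85% a CCAAT box, 12.37% a TATA box and 6.75% the AP-1 letters. The C/EBP letters stood in the window of a gene that rose (Mmp8, from base -19) and of one that fell (Adam8, from base -219, next to a CCAAT box with no shared base). The Mmp25 window held GC boxes from bases -74 and -34 and an ETS core from base -13, and the Adam17 window held a GC box from base -75. The windows of Mmp25 and Adam17 had a GC content of 66.0% and 70.4%, against 44.8% for Mmp8, 52.8% for Adam8 and a median of 52.4% over all windows. These matches are a description of the letters and not of binding.

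Counts on genes summed to between 34220182 and 46233555 per WT library and to between 37549648 and 43789253 per Cxcr2-/- library. Cxcr2 itself stood at 1719 to 2252 CPM (counts scaled to a common library size, with TMM factors) in the WT libraries and at 12.9 to 20.7 in the Cxcr2-/- libraries, so each library matched its label. The neutrophil markers S100a8, S100a9, Ly6g, Csf3r and Itgam were present in all libraries, but not at even levels. S100a8, S100a9 and Ly6g were higher in every Cxcr2-/- library than in any WT library, and Itgam overlapped between the groups. Another gene on the same strand shares 68.7% of the exon bases of Itgam, so the level of Itgam is uncertain. Csf3r was lower, at 6504 to 7470 CPM in WT and 3164 to 3513 CPM in Cxcr2-/- libraries. The share of read pairs that met no gene was 31.4 to 41.5% in WT and 26.7 to 31.9% in Cxcr2-/- libraries, with WT replicate 1 the WT library inside the Cxcr2-/- range. The share of the 10 most abundant genes was 9.45 to 11.6% in WT and 17.0 to 19.2% in Cxcr2-/- libraries.

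Comparing Cxcr2-/- with WT asks whether neutrophils without the receptor hold a different set of protease RNAs. The 3 granule MMPs and Adam10 rose, Adam8 and Adam17 fell, and Timp2 did not pass the test. A gene passed when its adjusted p in edgeR's quasi-likelihood test, adjusted over the 16778 genes tested, was under 0.05. This gives 6 of 7 genes, where 44.7% of all genes tested passed, and 4 of 7 higher and 2 of 7 lower, where 23.7% and 21.0% did. With a change of at least 1.5-fold in addition, Mmp9 and Mmp25 were left, both higher, where 31.3% of all genes tested passed in either direction and 15.7% as higher. The CPM of the 2 groups did not overlap for 6 of the 7 genes, against 41.6% of all genes tested. Of these, 4 were higher and 2 lower, against 22.5% and 19.1%. The median log2 fold change was 0.33 over the 7 genes and 0.01 over all genes tested.

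**Figure D1:**
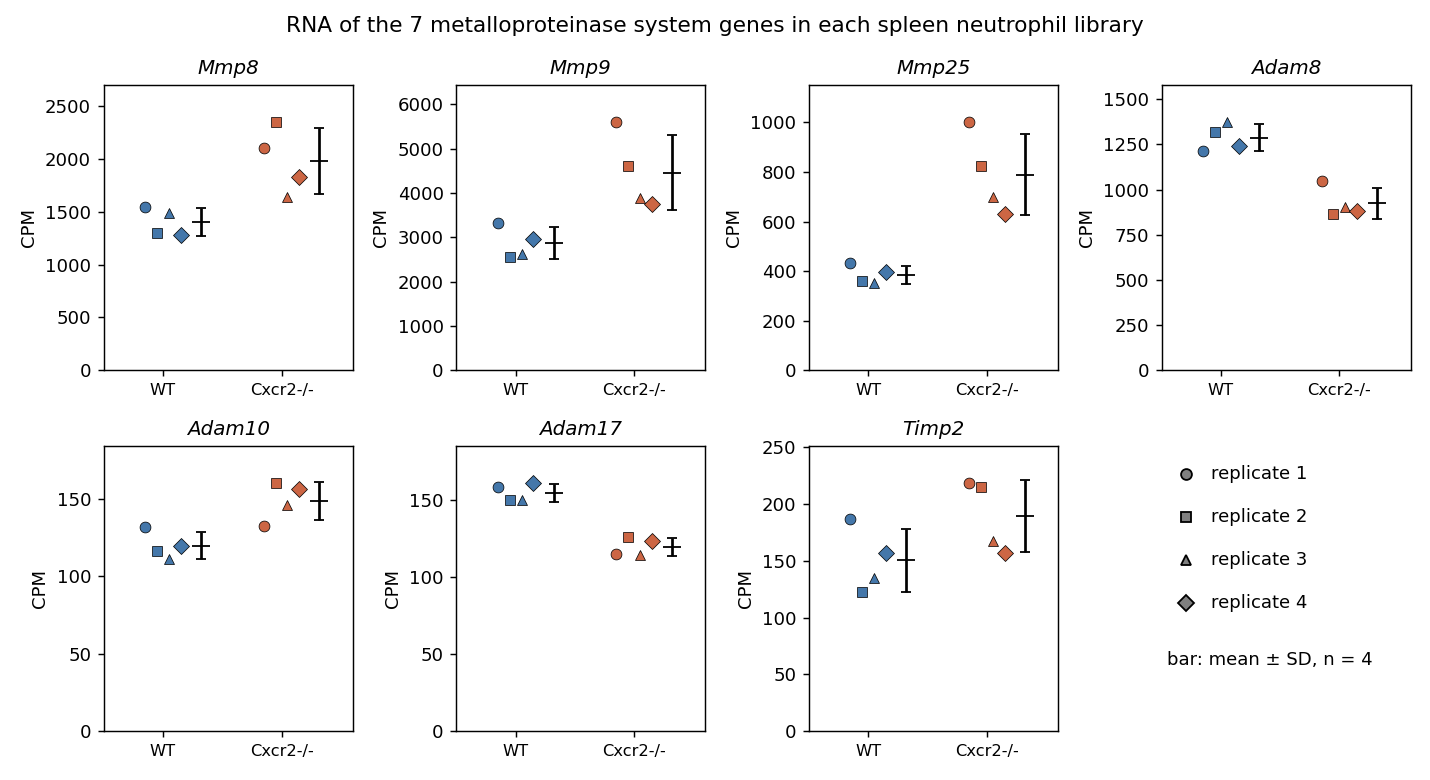
CPM of each of the 7 genes (y axes, each with its own scale) in the 4 WT and 4 Cxcr2-/- libraries (x axis), with a point per mouse and the group mean. Mmp8, Mmp9, Mmp25 and Adam10 are higher and Adam8 and Adam17 lower in every Cxcr2-/- library than in any WT library, with Adam10 separated by the gap between 131.8 and 132.3 CPM, and the groups overlap for Timp2.

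Mmp9 (ENSMUSG00000017737), gelatinase B, lies at chr2:164940780-164955850 on the + strand. Its level was 3328, 2548, 2611 and 2956 CPM in WT replicates 1 to 4, and 5596, 4601, 3877 and 3744 CPM in Cxcr2-/- replicates 1 to 4. The lowest Cxcr2-/- library was above the highest WT library. The mean was 2861 ± 359 CPM (SD, n = 4) in WT and 4454 ± 849 (n = 4) in Cxcr2-/- neutrophils, a 1.56-fold rise with a log2 fold change of 0.64 (SE 0.15, 95% interval 0.31 to 0.97, adjusted p = 0.00415 in edgeR's quasi-likelihood test). Mmp9 was the 19th most abundant of the 16778 genes tested, by average level.

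Mmp8 (ENSMUSG00000005800), neutrophil collagenase, cuts fibrillar collagen and is stored mainly in specific granules. It lies at chr9:7558456-7568485 (+). Its level was 1547, 1297, 1493 and 1284 CPM in the WT libraries, and 2105, 2349.8, 1641 and 1833 CPM in the Cxcr2-/- libraries. All Cxcr2-/- libraries were above all WT libraries, by a narrow margin between WT replicate 1 and Cxcr2-/- replicate 3. The means were 1405 ± 135 and 1982 ± 310.3 CPM (SD, n = 4 each), and the log2 fold change was 0.50 (SE 0.13, 95% interval 0.21 to 0.78, adjusted p = 0.00819 in edgeR's quasi-likelihood test). The 1.41-fold rise was under 1.5-fold.

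Mmp25 (ENSMUSG00000023903), a metalloproteinase held at the membrane by a lipid anchor and found in neutrophils, lies at chr17:23628311-23645277 (-). It had the largest relative change of the 7 genes. WT libraries stood at 431, 360.5, 352 and 397 CPM and Cxcr2-/- libraries at 1001, 825, 701 and 630.2 CPM. The groups were far apart relative to the spread within them. The means were 385 ± 36.4 and 789 ± 163 CPM (SD, n = 4 each), a 2.05-fold rise (log2 fold change 1.04, SE 0.14, 95% interval 0.73 to 1.34, adjusted p = 8.36e-05 in edgeR's quasi-likelihood test). The 3 MMPs together held between 0.453 and 0.528% of all gene counts of a WT library and between 0.612 and 0.786% of those of a Cxcr2-/- library.

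Adam8 (ENSMUSG00000025473), a membrane protease of leukocytes known to take part in the shedding of adhesion molecules, lies at chr7:139978932-139992562 (-) and moved the other way. Its level was 1214, 1321, 1373 and 1239 CPM in WT and 1048, 865, 901 and 879 CPM in Cxcr2-/- libraries. Every Cxcr2-/- library was below every WT library. The means were 1287 ± 73.7 and 923 ± 84.4 CPM (SD, n = 4 each), a log2 fold change of -0.48 (SE 0.10, 95% interval -0.70 to -0.25, adjusted p = 0.00247 in edgeR's quasi-likelihood test), which is a 1.39-fold decrease. Its exons share 46 bases (0.992%) with Gm16201 on the opposite strand, which stood at 6.31 to 10.1 CPM in WT and 1.16 to 2.69 CPM in Cxcr2-/- libraries. The strand setting of the counting is not given in the sources used here, so reads in those bases are uncertain.

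Adam17 (ENSMUSG00000052593), the TNF-converting enzyme that also sheds receptors of TNF, lies at chr12:21323509-21373632 (-). WT libraries stood at 159, 150.1, 150.1 and 161 CPM and Cxcr2-/- libraries at 115, 126, 114 and 123 CPM. The groups were separate and the spread within each was small. The means were 155 ± 5.85 and 119.8 ± 6.03 CPM (SD, n = 4 each), and the log2 fold change was -0.37 (SE 0.082, 95% interval -0.55 to -0.19, adjusted p = 0.00267 in edgeR's quasi-likelihood test), a 1.29-fold decrease. Iah1, on the opposite strand, overlaps 311 bases (4.35%) of its exons and stood at 6.21 to 9.10 CPM over all 8 libraries.

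Adam10 (ENSMUSG00000054693), the close relative of Adam17 that makes the first cut in Notch signalling and sheds CD44, lies at chr9:70678997-70780229 (+). Its level was 131.8, 116, 111 and 119.6 CPM in WT and 132.3, 160.3, 146 and 156 CPM in Cxcr2-/- libraries. WT replicate 1 and Cxcr2-/- replicate 1 were almost equal, and the other libraries were clearly apart. The means were 119.7 ± 8.78 and 149 ± 12.5 CPM (SD, n = 4 each), a 1.24-fold rise (log2 fold change 0.31, SE 0.094, 95% interval 0.11 to 0.51, adjusted p = 0.0166 in edgeR's quasi-likelihood test). This was the least stable call. The adjusted p in edgeR's quasi-likelihood test was 0.0691, 0.0851 and 0.0682 without WT replicate 2, WT replicate 3 and Cxcr2-/- replicate 4 in turn. It was 0.113 with upper-quartile normalization (log2 fold change 0.19), 0.079 with total counts and 0.0503 with protein-coding genes only.

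Timp2 (ENSMUSG00000017466), which binds and inhibits MMPs, lies at chr11:118301069-118355740 (-). WT libraries stood at 187, 123, 135 and 157 CPM and Cxcr2-/- libraries at 219, 215, 168 and 157 CPM. The groups overlapped, with WT replicate 1 above Cxcr2-/- replicates 3 and 4. The means were 150.4 ± 28.0 and 189.7 ± 31.6 CPM (SD, n = 4 each), and the log2 fold change was 0.33 (SE 0.15, 95% interval 0.02 to 0.65, adjusted p = 0.0811 in edgeR's quasi-likelihood test). Without WT replicate 1 the log2 fold change was 0.46 with an adjusted p of 0.0245 in the same edgeR test, and without Cxcr2-/- replicates 3 and 4 it was 0.51 with an adjusted p of 0.0181.

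**Figure D2:**
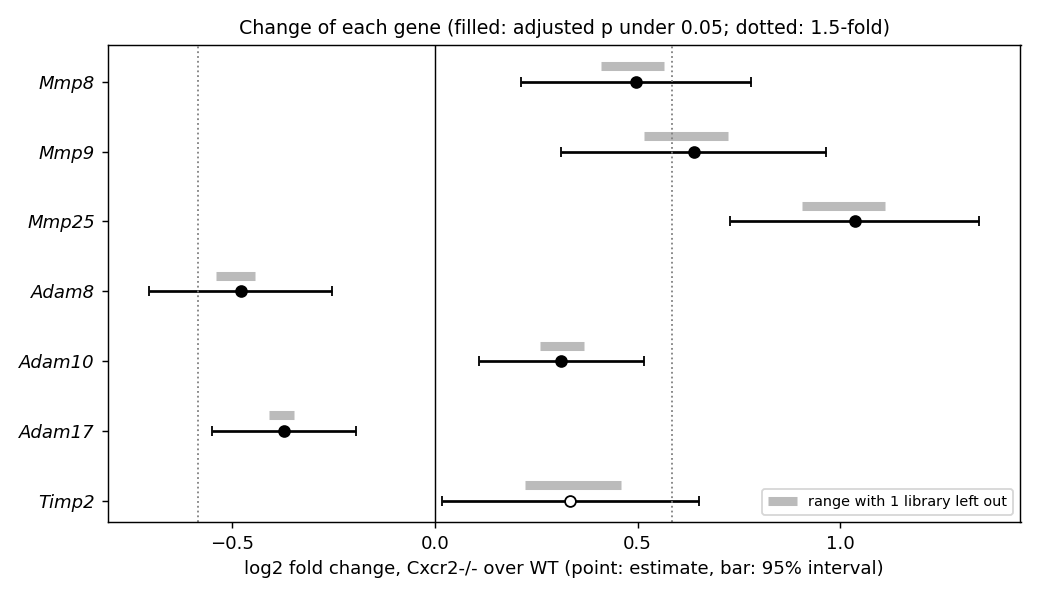
Log2 fold change of Cxcr2-/- over WT (x axis) for each of the 7 genes (y axis), with the 95% interval as a thin bar and the range over the fits that leave out 1 library as a thick grey bar; filled points have an adjusted p under 0.05. The interval of Mmp25 (0.73 to 1.34) lies wholly above the 1.5-fold line, and that of Timp2 comes within 0.02 of no change.

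The share of pairs that met no gene moved with some of these levels. WT replicate 1, with 31.4% against 40.0 to 41.5% in the other WT libraries, had the highest level of Mmp8, Mmp9, Mmp25, Adam10 and Timp2 among the WT libraries and the lowest of Adam8. Cxcr2-/- replicate 1, with the lowest share (26.7%), had the highest Mmp9, Mmp25, Adam8 and Timp2 of its group but the lowest Adam10, and Mmp8 was highest in Cxcr2-/- replicate 2. With this share as a covariate in the edgeR quasi-likelihood fit, none of the 7 genes passed. The log2 fold change was then 0.33 for Mmp8 (adjusted p = 0.317), 0.22 for Mmp9 (0.51), 0.65 for Mmp25 (0.0583), -0.47 for Adam8 (0.0796), 0.24 for Adam10 (0.324), -0.38 for Adam17 (0.0734) and -0.12 for Timp2 (0.715), all from edgeR. The share and the genotype are largely confounded in these 8 libraries, and their parts cannot be told apart.

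Levels of different genes were set side by side as CPM per kilobase of exon. In WT neutrophils the order was Mmp9 (808 ± 102 CPM per kb, SD, n = 4), Mmp8 (579.5 ± 55.5), Adam8 (277 ± 15.9), Mmp25 (72.6 ± 6.86), Timp2 (38.6 ± 7.20), Adam10 (24.4 ± 1.79) and Adam17 (21.7 ± 0.82). Neighbours in this order did not overlap over the 4 libraries, although Adam10 and Adam17 differed by little more than their spread. In Cxcr2-/- neutrophils the order was the same, at 1259 ± 239.9, 817 ± 128, 199 ± 18.2, 149 ± 30.7, 48.7 ± 8.12, 30.2 ± 2.54 and 16.8 ± 0.84 CPM per kb (SD, n = 4 each). There, Adam8 and Mmp25 overlapped, while Adam10 and Adam17 lay clearly apart.

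Ratios within a library show which pairs of genes changed unequally, and they are given as a description with no test. Adam17 over Adam10, per kilobase, was 0.826 to 0.927 in WT and 0.538 to 0.598 in Cxcr2-/- libraries, so the balance of these related sheddases was shifted in all 4 Cxcr2-/- libraries. Mmp9 over Mmp25 was 10.6 to 11.6 in WT and 8.29 to 8.90 in Cxcr2-/- libraries. Mmp9 over Timp2 was 19.6 to 22.8 in WT and 23.6 to 28.2 in Cxcr2-/- libraries, and the sum of the 3 MMPs over Timp2 was 34.6 to 41.9 and 44.0 to 47.8. The other 2 ratios overlapped between the groups. Mmp9 over Mmp8 was 1.20 to 1.58 in WT and 1.34 to 1.82 in Cxcr2-/- libraries, and Adam8 over Adam17 was 11.8 to 14.1 and 10.6 to 14.0.

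**Figure D3:**
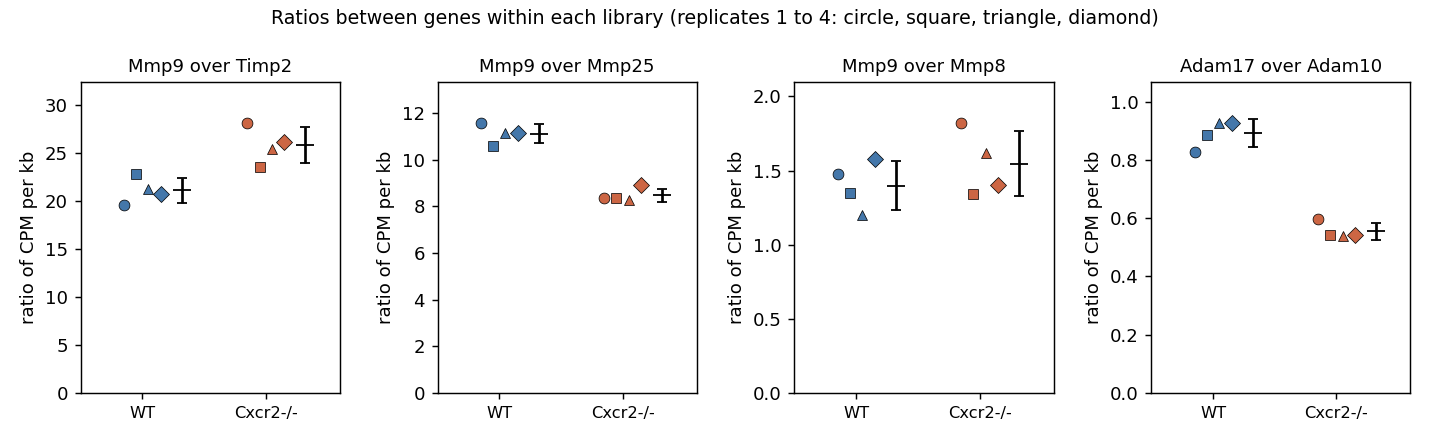
Ratios between members within each library, from CPM per kilobase (y axes), in WT and Cxcr2-/- libraries (x axis), with a symbol per replicate. Adam17 over Adam10 lies between 0.826 and 0.927 in WT and between 0.538 and 0.598 in Cxcr2-/- libraries, while Mmp9 over Mmp8 overlaps between the groups.

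The genes whose pattern over the 8 libraries was most like each member were found by the root mean square difference of standardized log2(CPM + 1) profiles among 7027 protein-coding genes whose average level was 3 or more in log2 CPM. This likeness includes the difference between the genotypes, which a large share of genes have. Mmp25 had the closest neighbours, Rnf10 (0.0531), Galns (0.0685) and Cebpe (0.074), the last a transcription factor of granulocyte maturation. Mmp9 was nearest to Rps6ka1 (0.102), Capn1 (0.108) and Maea (0.118), and Mmp8 to Mospd2 (0.113), Zfp141 (0.149) and Nck1 (0.179). Among the genes that fell, Adam17 was nearest to Klhl24 (0.0766), Fnip1 (0.0993) and Zfand4 (0.101), and Adam8 to Gab3 (0.0991), Thbs1 (0.18) and Inpp5d (0.202). Adam10 was nearest to Plpp6 (0.15), Sgpp1 (0.184) and Kdsr (0.235), and Timp2 to Dnajc14 (0.143), Fcgr2b (0.189) and Lcp1 (0.198). Among the members themselves, the closest pair was Mmp9 and Mmp25 (0.198), and Adam8 and Adam17 differed by 0.563.

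The rest of the 2 protease families was mostly at low level. Of 20 other MMP genes, 10 passed the filter on low counts, and of these Mmp19 was higher, Mmp2, Mmp12, Mmp13 and Mmp17 were lower and 5 did not pass (median log2 fold change -0.26). Over all genes tested, 44.7% passed the test, 23.7% as higher and 21.0% as lower, with a median log2 fold change of 0.01. Mmp2, gelatinase A, fell from 6.13 ± 1.47 to 3.03 ± 0.52 CPM (SD, n = 4 each; log2 fold change -1.02, SE 0.20, adjusted p = 0.00137 in edgeR's quasi-likelihood test). Mmp12, the macrophage elastase, had 2.20 to 16.9 CPM in WT and 0.609 to 2.21 in Cxcr2-/- libraries, with WT replicate 2 the highest (log2 fold change -2.44, and -1.54 without WT replicate 2). Mmp14, which activates pro-Mmp2 together with Timp2, was at 0.214 to 0.543 CPM in WT and 0.101 to 0.389 in Cxcr2-/- libraries and was not tested. Mmp1b, Mmp3, Mmp7 and Mmp10 had no count in any library, which allows up to 3 counts in each.

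Of 10 other ADAM genes, 9 were tested, of which Adam9 and Adam15 were higher, Adam23 and Adamdec1 lower and 5 did not pass (median log2 fold change -0.26). Over all genes tested, 44.7% passed, 23.7% as higher and 21.0% as lower, with a median of 0.01. Adam15, a membrane protease with an integrin-binding domain, rose from 62.2 ± 4.64 to 128 ± 19.5 CPM (SD, n = 4 each; log2 fold change 1.04, SE 0.11, adjusted p = 1.42e-05 in edgeR's quasi-likelihood test), and 20.6% of its exons overlap an antisense gene. Adam9 rose from 24.0 ± 1.22 to 34.1 ± 3.30 CPM (log2 fold change 0.50). Adam19, with the highest CPM of this list, stood at 366 to 453 CPM in WT and 348 to 388 in Cxcr2-/- libraries (log2 fold change -0.24, adjusted p = 0.0658 in edgeR's quasi-likelihood test). It passed as lower with total counts, upper-quartile normalization, protein-coding genes only, at least 10 counts in every library and the non-neutrophil covariate, and without WT replicate 2. Adam23 rested in part on 1 library, with 61.6 CPM in WT replicate 2, and its log2 fold change was -2.29 with all libraries and -1.33 without that one. The call of Adamdec1 was lost without WT replicate 1, 2 or 3 or Cxcr2-/- replicate 2 or 3, with an adjusted p of up to 0.0615 in edgeR, and with the replicate block.

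Among the other inhibitors, Reck, a membrane-anchored inhibitor of MMPs, was the one at a clear level. It stood at 28.5 to 31.7 CPM in WT and 66.0 to 101 CPM in Cxcr2-/- libraries, with the groups well apart. The mean rose from 29.9 ± 1.32 to 84.1 ± 16.2 CPM (SD, n = 4 each; log2 fold change 1.49, SE 0.13, adjusted p = 2.06e-06 in edgeR's quasi-likelihood test). Timp1, the usual partner of Mmp9, was at 0.116 to 0.332 CPM in WT and 0.122 to 0.330 CPM in Cxcr2-/- libraries and did not pass. Timp3 and A2m were at or near 0 and Timp4 had no count, so Timp2 was the TIMP gene with RNA at a clear level in these cells.

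Of 12 genes that carry sheddases to the surface or cut their proenzymes, 11 were tested, 2 were higher, 2 lower and 7 did not pass. Over all genes tested, 23.7% were higher and 21.0% lower. Tspan5 (log2 fold change 0.36) and Tspan15 (1.21, from 0.916 to 2.12 CPM) are tetraspanins that accompany Adam10, and both passed as higher. Tspan14, the most abundant tetraspanin listed, stood at 157 to 177 CPM in WT and 176 to 192 CPM in Cxcr2-/- libraries. It did not pass (log2 fold change 0.17). Tspan17 (0.32) and Tspan33 (-0.79) did not pass either, and Tspan10 was not tested. Rhbdf2, the iRhom that carries Adam17 out of the endoplasmic reticulum in leukocytes, was at 202 to 243 CPM in WT and 179.6 to 297 CPM in Cxcr2-/- libraries (log2 fold change 0.00, 95% interval -0.30 to 0.30), and Frmd8, which binds it, had a log2 fold change of -0.04. Furin, the convertase that removes prodomains of ADAMs, fell from 568 ± 93.6 to 430.0 ± 53.2 CPM (SD, n = 4 each; log2 fold change -0.40, adjusted p = 0.0268 in edgeR's quasi-likelihood test), and Pacs2, which takes part in the recycling of Adam17, fell by 0.36 on the log2 scale. The Furin call was lost without WT replicate 1, WT replicate 4 or Cxcr2-/- replicate 2, 3 or 4, with an adjusted p of up to 0.0951 in edgeR.

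Known substrates of Adam10, Adam17 and Adam8 were mostly lower. Of 19 listed, 15 were tested, 11 were lower, 3 were higher and 1 did not pass, where 21.0% of all genes tested were lower and 23.7% higher, with a median log2 fold change of -0.53 against 0.01 over all genes tested. Cd44, a hyaluronan receptor, was lower, at 2527 to 2961 CPM in WT and 1573 to 1654 CPM in Cxcr2-/- libraries (log2 fold change -0.76, SE 0.10, adjusted p = 7.14e-05 in edgeR's quasi-likelihood test). Tnfrsf1b fell from 350.2 ± 46.9 to 191 ± 20.3 CPM, Csf1r from 442 ± 41.1 to 232 ± 42.1 and Notch2 from 1479 ± 135 to 1021 ± 142 (SD, n = 4 each). Il6ra, Il1r2, Icam1, Tnfrsf1a, Notch1, Cxcl16 and Hbegf were the others that were lower. Tnf (log2 fold change 0.50), App (0.86) and Mertk (1.09) were higher. Some of these calls are of genes at low level. Mertk was at 0.983 to 2.49 CPM in WT and 2.88 to 4.55 CPM in Cxcr2-/- libraries. Cxcl16 was at 1.07 to 2.15 and 0.664 to 1.14 CPM, and Hbegf at 1.28 to 1.94 and 0 to 0.438 CPM, in the same order. The calls of Tnfrsf1a and Cxcl16 were each lost in several of the fits that leave out 1 library, and that of Notch1 without Cxcr2-/- replicate 2.

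Granule genes that share a compartment with the MMPs were mostly higher. Of 11 other gelatinase granule genes, 7 were higher, 1 was lower and 3 did not pass (median log2 fold change 0.74), where 23.7% of all genes tested were higher and 21.0% lower. Cybb, the large subunit of the phagocyte NADPH oxidase, rose from 1258 ± 68.5 to 2727 ± 404 CPM (SD, n = 4 each; log2 fold change 1.12, adjusted p = 1.73e-05 in edgeR's quasi-likelihood test). Cyba, Fpr1, Fpr2, Lyz2, Hpse and Fcnb rose too, and Slc11a1, a metal transporter of the granule membrane, fell by 0.66 on the log2 scale. Of 7 specific granule genes, 6 were higher against the same 23.7%, and Olfm4 had a log2 fold change of -0.28 (median 1.28). Ltf, lactoferrin, rose from 8699.9 ± 594 to 21059 ± 3822 CPM and Lcn2 from 2893 ± 341 to 8619 ± 1393 CPM (SD, n = 4 each). The log2 fold changes of Mmp8 (0.50) and Mmp9 (0.64) were smaller than these list medians, and that of Mmp25 (1.04) lay between them.

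**Figure D4:**
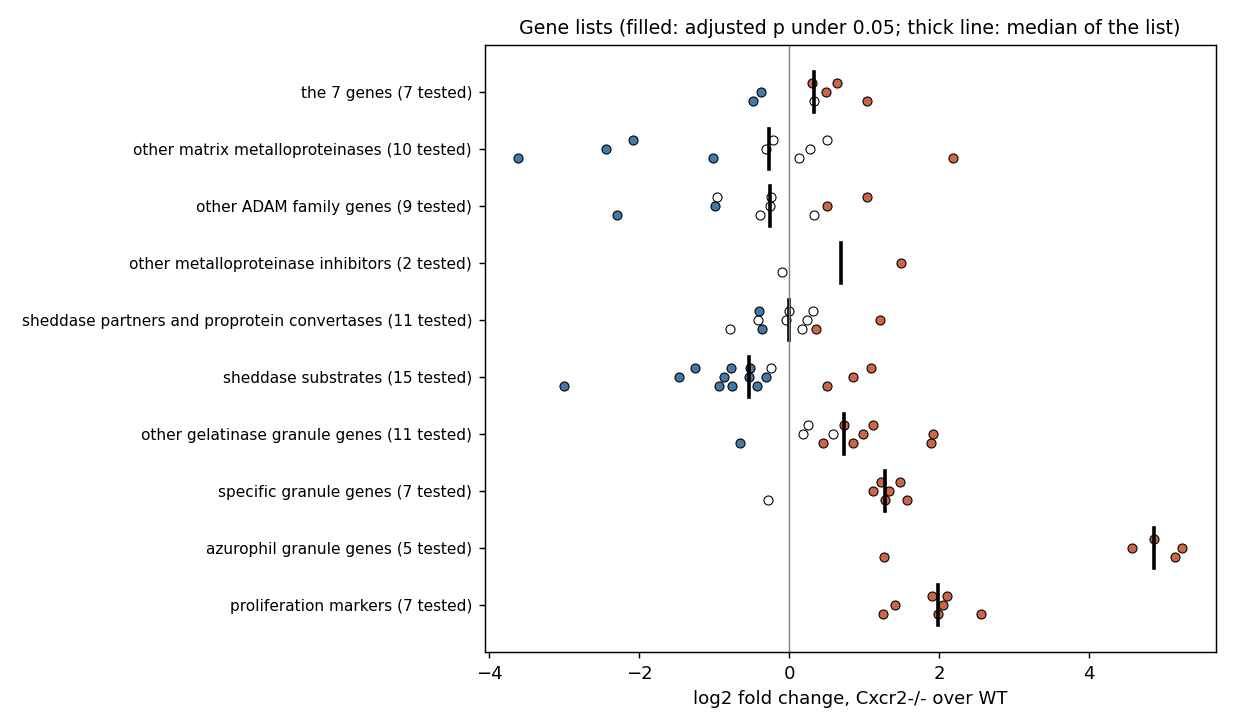
Log2 fold change of Cxcr2-/- over WT (x axis) for every gene tested of the 7 genes and of the lists (y axis), with filled points for an adjusted p under 0.05 and a thick line at the median of the list. The substrates lie mostly below 0 with a median of -0.53, and the other gelatinase granule genes and the specific granule genes lie mostly above 0 with medians of 0.74 and 1.28.

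Markers of cell stage and of other cells moved with the genotype as well. The 5 azurophil granule genes, which are transcribed in promyelocytes, were all higher in Cxcr2-/- libraries, with a sum of 7.69 to 17.3 CPM in WT and 64.0 to 364 CPM in Cxcr2-/- libraries, the highest in replicates 3 and 4. The 7 proliferation genes were all higher, with a sum of 275 to 325 CPM in WT and 873 to 967 CPM in Cxcr2-/- libraries. Over all genes tested, 23.7% were higher. Without Cxcr2-/- replicates 3 and 4, Mmp8, Mmp9, Mmp25, Adam8 and Adam17 still passed in edgeR's quasi-likelihood test and Adam10 did not (adjusted p = 0.101). The summed markers were 30.7 to 68.4 CPM in WT and 15.3 to 35.2 in Cxcr2-/- libraries for B cells, and 704 to 819 against 845 to 970 for monocytes and macrophages. Csf1r and Ly6c2 made up most of that sum and went opposite ways: Ly6c2 was higher (194 to 270.0 CPM in WT against 573 to 663 in Cxcr2-/- libraries), and Csf1r was lower, as was Adgre1 (26.6 to 36.5 against 9.60 to 16.3 CPM). Of the 10 genes of that list 2 were higher and 2 lower, where 23.7% and 21.0% of all genes tested were. The median log2 fold change of the list was -0.91. The sums were 84.0 to 113 against 90.1 to 138 for T and NK cells, nearly all Cd3d, and 38.8 to 56.0 against 34.9 to 56.9 for eosinophils and mast cells. Most of the latter was Siglecf, which was lower (37.7 to 55.4 against 28.7 to 35.2 CPM), while the eosinophil granule genes Prg2 (0.116 to 3.74 against 2.63 to 16.3 CPM) and Epx (0.0884 to 0.882 against 0.609 to 5.10 CPM) were higher. Sums for dendritic cells (9.14 to 28.6 against 5.81 to 8.65 CPM), erythroid cells (1.76 to 4.49 against 1.63 to 12.0) and platelets (5.92 to 7.94 against 4.07 to 6.62) were small. With the non-neutrophil markers as a covariate, all 6 calls among the members held. This covariate is an average over markers that moved in both directions, so it does not follow the amount of any single cell type. The part of the stage markers in the changes of the 7 genes was not tested.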

How the data were processed

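Each library held the RNA of sorted spleen neutrophils from 1 mouse. The authors depleted ribosomal RNA, made directional libraries, sequenced both ends, aligned the trimmed reads with STAR (mm10), ran HTSeq and deposited its raw counts per gene. The annotation release and strand setting of the counting are not given in the sources used here. Of 55414 identifiers, 52081 matched GENCODE M21, which gave symbols, exon lengths and positions (GRCm38), and the other 3333 held 1.427% of the counts. Program totals, such as pairs that met no gene, stayed out of library sizes and tests. All replicate pairs differed beyond sampling noise.

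Counts were tested in R 4.3.3 with edgeR 4.0.16 (quasi-likelihood test, TMM, filterByExpr, Benjamini-Hochberg over 16778 genes), with the genotype as the only term. The steps were tested on simulated data. CPM used TMM library sizes, and the biological coefficient of variation was 0.202. At 34220182 or more counts per library, the spread between mice limited the precision more than counting did.

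The 7 genes, the gene lists and the ratios were chosen with earlier results of these data known, and no list was tested as a set. A gene of the substrate list is not reported here and stays out of its counts. Named genes are the 7, genes of the lists, Cxcr2, genes whose exons overlap the 7, and the 3 genes most alike each. There were 19 alternatives: DESeq2 1.42.0, RLE, upper-quartile and total-count scaling, other filters, protein-coding genes only, a block for the replicate number, a covariate of 43 non-neutrophil markers, each library left out, and 2 chosen after seeing the data. These are Cxcr2-/- replicates 3 and 4 both left out, and the share of pairs that met no gene as a covariate.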

Additional observations from a re-analysis of the deposited data

How the results depend on the processing

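Of the 6 calls among the 7 genes, those of Mmp8, Mmp9, Mmp25, Adam8 and Adam17 kept their direction and passed under all alternatives except the covariate for the share of pairs that met no gene, and Adam10 lost its call under 8 alternatives. Over the fits that leave out 1 library, 3 to 5 of the 7 genes were higher and 2 lower. The log2 fold change then ranged from 0.41 to 0.57 for Mmp8, 0.52 to 0.72 for Mmp9, 0.91 to 1.11 for Mmp25, -0.54 to -0.44 for Adam8, 0.26 to 0.37 for Adam10, -0.41 to -0.35 for Adam17 and 0.22 to 0.46 for Timp2. Depth did not limit the 7 genes, while the low MMPs rest on few counts.

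With the share of pairs that met no gene as a covariate, 1597 genes passed as higher and 1486 as lower (1502 and 1341 with 1.5-fold), against 3969 and 3526 (2628 each). Of the 7 genes 0 were higher and 0 lower, and Timp2 turned to -0.12. The other MMPs had 0 higher and 1 lower, the other ADAM genes 0 lower, the sheddase partners 0 higher and 1 lower, the substrates 0 higher and 7 lower, and the other gelatinase granule genes 4 higher. Itgb2 turned to -0.052 and Rhbdf2 to -0.29. The covariate and the genotype are largely confounded.

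Rhbdf2, at 0.00, fell on the other side of 0 with DESeq2 (-0.016), RLE (-0.020), upper-quartile (-0.12), total counts (-0.10), no filter (-0.017), at least 10 counts (-0.040), the replicate block (-0.022), non-neutrophil markers (-0.073) and protein-coding genes (-0.078), and with 1 library left out it ranged from -0.16 to 0.074. Frmd8 ranged from -0.14 to 0.0092 and was 0.075 without Cxcr2-/- replicates 3 and 4. Olfm4 passed as lower, making 1 lower specific granule gene, with upper-quartile, total counts, at least 10 counts and protein-coding genes. With at least 10 counts, the other MMPs had 0 higher and 2 lower, since fewer genes were tested. Without Cxcr2-/- replicates 3 and 4, 1 sheddase partner was lower. With 1 library left out, the lower genes numbered 1 to 2 among the other ADAM genes, 1 to 2 among the partners and 0 to 1 among the specific granule genes. The cause of these changes was not tested.

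Mice with the same replicate number are different animals, and the deviations of same-numbered libraries correlated at 0.15, -0.19, 0.25 and -0.31. Those of different-numbered libraries ranged from -0.27 to 0.303. These values cannot tell whether a shared number stands for a shared sort or batch, and the labels do not say. With the replicate block, 3719 genes passed as higher and 3349 as lower, the 7 genes kept 4 higher and 2 lower, and the other ADAM genes had 1 lower. Upper-quartile normalization shifted the median log2 fold change of all genes to -0.11 from 0.01, and 3076 genes were then higher and 4391 lower.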
